A study of Mus musculus with 9 samples.

Results

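The start sites described here are those of genes whose promoter region carried more trimethylation of lysine 27 on histone H3 (H3K27me3) in a culture labelled as intestinal M cells than in a culture labelled as intestinal stem cells. They are 2519 regions on chromosomes 1 to 19. The authors had called each as higher in the first culture, and its centre lay at most 1000 bp from the nearest transcription start site (TSS). They make up 8.89% of the 28339 autosomal regions called in this direction and belong to 2374 genes by symbol. The regions were thus chosen by the tag counts of the same 2 cultures and by position, so the H3K27me3 values are given as a description and were not tested.

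The cells came from the mini-gut (organoid) model of mouse duodenum, grown as 3 cultures. The culture named RANKL, after the cytokine known to induce M cells, is labelled intestinal M cell, WENRC is labelled intestinal stem cell, and ENRI is labelled enterocyte. M cells are the antigen-sampling cells of the gut lining, and enterocytes are its absorptive cells. The culture names are not spelled out in the labels, which also give no strain, sex, age, genotype or duration of culture. None of these can thus be taken from the labels and set beside the values. ChIP-seq for H3K27me3 comprised 2 RANKL libraries, which the authors pooled, and 1 WENRC library. Nascent transcription was measured by GRO-seq, which reads the RNA that engaged polymerases are making in isolated nuclei, in 2 libraries of each culture. The ENRI and WENRC libraries carry the number of a mouse (1 or 2), while the RANKL libraries carry only a replicate number.

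H3K27me3 is laid down by Polycomb repressive complex PRC2 and is read by PRC1. At silent developmental genes the mark typically forms broad domains over CpG-rich start sites, and it is associated with low transcription. In the intestinal lining, Polycomb complexes are known for keeping genes of other lineages silent as crypt stem cells divide and mature.

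The start sites of 5 members are shown because they stand for the patterns below. Ifnlr1, Sp9 and Fyn lay under long or strongly marked regions and were transcribed at lower levels in RANKL than in WENRC. Muc2, under a region of 2442 bp, and Celsr3, under a shorter region of 830 bp with a fold of 2.17, were transcribed at higher levels. Each line gives the 250 bases before the start site from RefSeq's GRCm38.p6, read 5′ to 3′ on the plus strand, on which all 5 genes lie, with every CG in capitals. This is another build than the mm9 of the regions.
Ifnlr1 (chr4:135686207-135686456): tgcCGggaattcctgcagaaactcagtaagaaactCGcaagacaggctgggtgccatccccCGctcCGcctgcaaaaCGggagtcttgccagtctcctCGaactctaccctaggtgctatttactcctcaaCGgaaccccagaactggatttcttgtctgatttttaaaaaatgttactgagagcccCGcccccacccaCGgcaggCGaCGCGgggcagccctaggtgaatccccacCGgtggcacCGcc
Sp9 (chr2:73271676-73271925): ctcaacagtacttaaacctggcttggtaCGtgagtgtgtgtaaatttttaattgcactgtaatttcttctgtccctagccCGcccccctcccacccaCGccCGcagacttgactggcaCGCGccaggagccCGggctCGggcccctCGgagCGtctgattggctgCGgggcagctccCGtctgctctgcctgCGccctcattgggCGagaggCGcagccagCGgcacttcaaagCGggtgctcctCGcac
Fyn (chr10:39369549-39369798): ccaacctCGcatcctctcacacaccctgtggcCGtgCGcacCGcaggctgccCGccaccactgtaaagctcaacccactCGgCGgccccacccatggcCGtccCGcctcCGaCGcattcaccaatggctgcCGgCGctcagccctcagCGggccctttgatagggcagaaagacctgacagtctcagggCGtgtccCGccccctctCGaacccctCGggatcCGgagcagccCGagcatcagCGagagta
Muc2 (chr7:141690090-141690339): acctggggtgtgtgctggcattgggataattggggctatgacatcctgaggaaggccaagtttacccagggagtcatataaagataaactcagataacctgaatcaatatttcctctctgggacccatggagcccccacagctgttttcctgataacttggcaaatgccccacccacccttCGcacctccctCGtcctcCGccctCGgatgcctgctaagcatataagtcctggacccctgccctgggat
Celsr3 (chr9:108825795-108826044): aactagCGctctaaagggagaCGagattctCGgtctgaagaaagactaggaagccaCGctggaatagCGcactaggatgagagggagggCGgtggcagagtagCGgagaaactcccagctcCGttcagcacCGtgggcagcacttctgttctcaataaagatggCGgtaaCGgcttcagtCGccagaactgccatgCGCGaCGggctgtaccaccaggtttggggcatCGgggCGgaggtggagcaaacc

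These windows differ in how many CG they hold. Over the 32851 RefSeq promoters of the same length the median was 6 CG, with quartiles of 2 and 16. Fyn held 21, Sp9 18, Celsr3 17 and Ifnlr1 14, each more than at least 70.6% of all promoters, while Muc2 held 4, more than 37.8%. The ratio of observed to expected CG was 0.794 in Fyn, 0.75 in Sp9, 0.833 in Celsr3 and 0.694 in Ifnlr1, and 0.231 in Muc2, beside a median of 0.373. Of the motifs searched on both strands, GGGCGG (which itself holds a CG) occurred in all 5 windows and in 32.7% of all promoters. CCAAT occurred in Sp9, Fyn and Muc2 and in 33.8% of all promoters, and TATAAA in Muc2 and in 12.4%. These are letter matches and not measured binding sites. A promoter entry was found for 1763 of the 2374 genes (74.3%), under the 80% needed, so that a comparison of base composition over all members is void and was not made.

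The region over each of these starts can be read in tags, the sequenced fragments counted by the authors. Coordinates of regions are mm9, as in the files. RANKL tags are whole counts of the pooled libraries (32.7 M tags), and the WENRC tags are those of its single library scaled by 0.9 to that depth. The Ifnlr1 region (chr4:135239604-135246380, over the start and into intron 1) held 447 tags in RANKL and 47.7 in WENRC. The Sp9 region (chr2:73100693-73119971) held 1837 and 398.8, and was the longest and the most heavily tagged of the 2519. Over Fyn (chr10:39089299-39091323) the values were 145 and 23.4. Over Muc2 (chr7:148874436-148876878) they were 157 and 61.2, and over Celsr3 (chr9:108728175-108729005) 90 and 41.4. RANKL was thus higher at all 5, as the rule requires, by authors' folds from 2.17 at Celsr3 to 9.37 at Ifnlr1.

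Most of the 2519 regions were short and showed moderate differences. Their median length was 785 bp (quartiles 500 and 1260), with 788 (31.3%) at the 500 bp minimum and 255 (10.1%) of 2000 bp or more. They were longer than the 4325 RANKL-higher regions lying more than 1000 and up to 5000 bp from a TSS, whose median was 629 bp with 46.8% at 500 bp. A region held a median of 51 RANKL tags (16 to 1837) and 19.8 scaled WENRC tags (from the floor of 0.5 to 411.4). Per kb of region this was 58.5 tags in RANKL and 22.2 in WENRC, beside 50 and 18.0 in the regions farther out and 46.0 and 15.8 over all autosomal RANKL-higher regions. Both cultures therefore had more tags per kb at start sites than in the regions away from them, while the authors' fold was lower: its median was 2.63 (quartiles 2.29 and 3.17) at start sites, 2.72 farther out and 2.89 over all autosomal regions. None of these values has a replicate check, since the RANKL libraries were pooled and WENRC had 1 library.

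**Figure D1:**
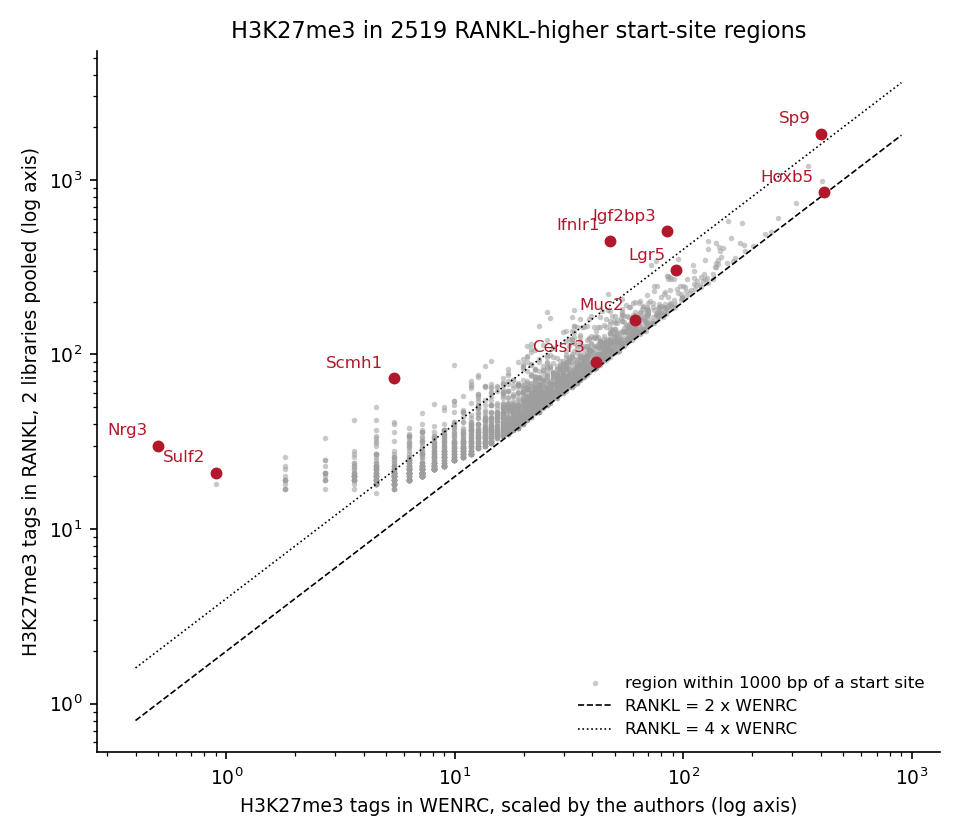
Each point is 1 of the 2519 regions, with scaled WENRC tags on the x axis and pooled RANKL tags on the y axis, both logarithmic; the dashed and dotted lines mark RANKL at 2 and 4 times WENRC, and red points carry gene names. All regions lie on or above the dashed line, which the authors' minimum fold of 2 sets, and 285 (11.3%) have a fold of at least 4.

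The regions gathered on the start site rather than filling the window evenly. In steps of 250 bp from 1000 bp upstream to 1000 bp downstream, 166, 204, 279, 450, 538, 358, 277 and 247 regions had their centre. The step just after the start site held the most, and 1420 centres (56.4%) lay at or downstream of it, with a median of 71 bp downstream. By the authors' annotation 1405 (55.8%) lay in a promoter, 636 (25.2%) in an intron, 229 (9.09%) in an exon and 186 (7.38%) in a 5′ UTR, and 1570 (62.3%) contained the TSS they are assigned to. At the edge of the rule, the 165 regions centred 901 to 1000 bp away had a median fold of 2.78 and 39 tags, and the 148 centred 1001 to 1100 bp away had 2.69 and 39. The nearest to the limit were at Tmem63c (1000 bp), Rbfox3 and Ampd3 (999 bp) inside, and at 2900041M22Rik, Meox2 and Tcea2 (1003 bp) outside.

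**Figure D2:**
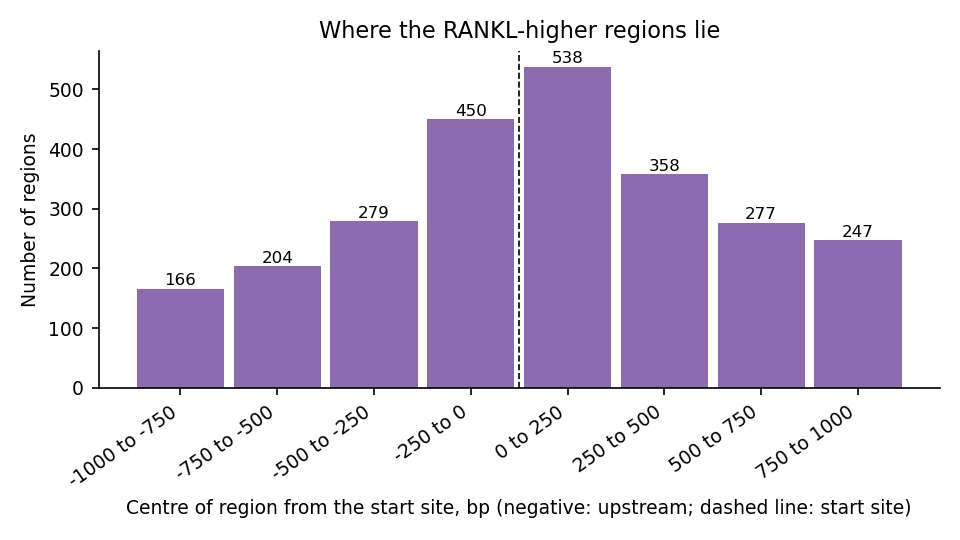
Bars give the number of regions whose centre falls in each 250 bp step from the start site, upstream on the left; the dashed line is the start site. The numbers rise from 166 at the upstream edge to 450 and 538 on either side of the start site and fall to 247 at the downstream edge.

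The regions with the most tags were long and lay over genes of several kinds. After Sp9, a zinc finger transcription factor of the Sp family, the region with the most tags was 15520 bp long, held 1204 tags against 350.2, and covered the starts of 2610016A17Rik and Dmrt2. A region of 10119 bp covered Msx1, a homeobox gene, and Msx1os (980 against 404.2 tags). Regions of 8187 bp over Hoxb5 (846 against 411.4) and 9133 bp over Barhl1, another homeobox gene (735 against 309.7), followed. The region at Crnde, a long non-coding RNA gene, was 6605 bp long, held 602 tags against 260.2, and also covered the start of Irx5. The next by tags were at Lncpint, a long non-coding RNA gene (7928 bp, 580 against 156.6), Gm20052 (9008 bp, 564 against 180), Igf2bp3, 2410004I01Rik (8384 bp, fold 2.08), Ccdc136 (7446 bp, 487 against 227.8) and Zcchc11 (7020 bp, 467 against 161.1). The regions from Sp9 to Crnde had folds from 2.06 (Hoxb5) to 4.61 (Sp9). Their tag totals grow with length in both cultures. Per kb, the WENRC signal was 20.7 at Sp9 and 22.6 at 2610016A17Rik, near the median of 22.2 over all start-site regions. It was above that median at Barhl1 (33.9), Crnde (39.4), Msx1os (39.9) and Hoxb5 (50.3).

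The highest folds belonged to short regions with few WENRC tags. Sulf2, which encodes an extracellular heparan sulfate 6-O-endosulfatase, had 21 tags in RANKL and 1 unscaled tag in WENRC, an authors' fold of 23.33. The exact binomial 95% interval of that ratio ran from 3.75 to 965, and like the intervals that follow it covers counting error only. Ccdc74a, with 18 tags against 1, had 19.99 (3.16 to 833). Nrg3, which encodes a neuregulin, a ligand of ErbB receptors, had 30 tags against 0, which with a limit of 3 tags is at least 11.1-fold higher. In all, 28 regions had at most 3 WENRC tags, and their folds are loose. Other regions with a high fold had more WENRC tags. Scmh1, a PRC1-associated Polycomb gene, had 73 tags against 5.4 (fold 13.51), Fermt2, which encodes kindlin-2 of integrin adhesions, had 50 against 4.5 (11.11, interval 4.46 to 35.7), and Meis2, a homeobox gene, had 42 against 3.6 (11.66, interval 4.23 to 44.8) at 1 of its 2 regions. The tags of Fermt2 and Meis2 in RANKL were below the median region. Ifnlr1 (9.37), Fyn (6.19) and Igf2bp3 (6.0), an RNA-binding protein gene with 508 tags against 84.6, had many tags beside a high fold.

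Some genes had several regions. Of the 2374 genes, 135 (5.69%) had at least 2 and 9 had at least 3, and in 91 of the 135 each region was nearest to a different transcript start. Bdnf, the gene of brain-derived neurotrophic factor, which is known for its many promoters, had 4, each near the start of another transcript, with 31, 32, 54 and 49 RANKL tags against 13.5, 12.6, 20.7 and 22.5 in WENRC. Impdh1, an enzyme gene of guanine nucleotide synthesis, had 3, with folds of 11.11 (20 tags against 2 unscaled; interval 2.7 to 98), 2.51 and 4.04. The remaining 7 genes with 3 regions were Ank1, Anks1b, Ccdc30, Celf5, Grm4, Rcan2 and Sptbn4. In the other direction, 68 regions covered at least 2 listed start sites, so that a region is not always the property of 1 gene.

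Some genes carried start-site regions of both directions. Among the 2374 genes, 28 (1.18%) also had a region higher in WENRC within 1000 bp of a start site, beside 1.23% of all listed autosomal genes. They are 9.66% of the 290 genes with such a region, beside the 10.1% of all listed autosomal genes that have a RANKL-higher one, so both shares lay near those of all genes. In 8 cases the regions overlapped by at least 1 bp. At Igf2, a growth factor gene, a RANKL-higher region (100 against 48.6 tags) lay near 1 start and a WENRC-higher region (58.5 against 28.0) near another. At Fgf2, which encodes a fibroblast growth factor, the values were 108 against 50.4 in the first and 38.7 against 18.0 in the second.

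Some families of regulators were marked at many of their start sites, beside 10.1% of the 23354 listed autosomal genes. The lists and the members were chosen with earlier results of these data known, so the shares describe and are no test. Calcium and sodium channels had a region at 21 of 39 genes, Eph receptors and ephrins at 11 of 21, Wnt pathway genes at 32 of 65, Notch pathway genes at 7 of 16, helix-loop-helix, Gata and Ebf factors at 24 of 65, homeobox genes outside the Hox clusters at 52 of 144 and Hox genes at 11 of 39. Krueppel-type zinc finger genes stood at 39 of 462 (8.44%), chemokine and interleukin genes at 10 of 130, and olfactory and vomeronasal receptors at 16 of 1471 (1.09%). The lists of cell type markers hold at most 10 genes, too few to set a count of 0 apart from the 10.1% of all genes. None of the 10 M cell, 10 enterocyte, 5 Paneth cell, 6 immune cell or 3 endothelial markers had such a region. It was present at 4 of 9 stem cell markers (Lgr5, Olfm4, Smoc2 and Tnfrsf19), 2 of 6 goblet cell, 3 of 7 enteroendocrine, 1 of 5 tuft cell, 3 of 6 fibroblast and 2 of 4 neural and glial markers.

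**Figure D3:**
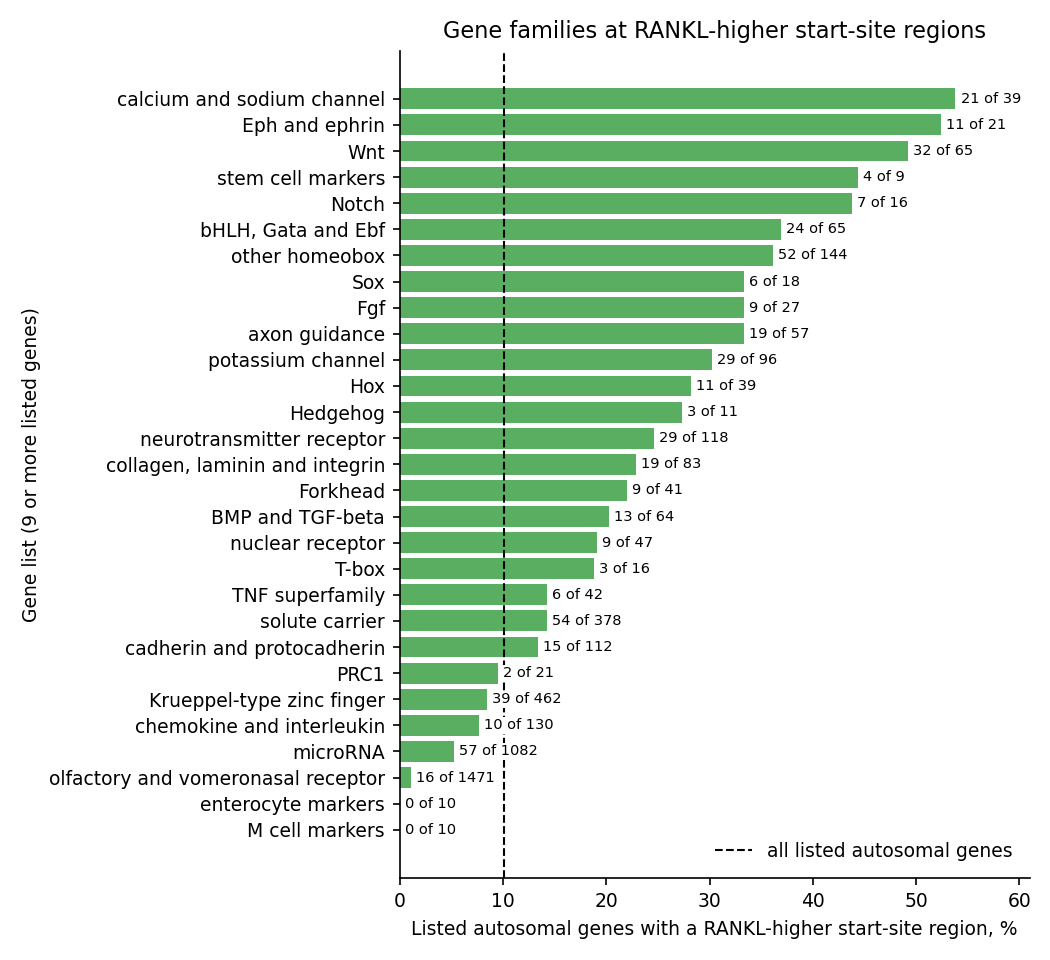
Bars give the percentage of the listed autosomal genes of each list that have a RANKL-higher start-site region, with the counts beside them; the dashed line is the 10.1% of all listed autosomal genes. The lists of calcium and sodium channels, of Eph receptors and ephrins and of the Wnt pathway reach 49.2% or more, and potassium channels reach 30.2%. The M cell and enterocyte markers are at 0, with only 10 listed genes each.

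Symbols of microRNAs or their host genes made up 57 members (5.27% of the 1082 listed, beside 10.1% of all), and 50 of them had a RefSeq microRNA entry. For 3 of the 4 with the most tags the mature sequences are shown with the seed (bases 2 to 8) in capitals, from RefSeq. They are shown because their GRO-seq rows are listed at 0, so the mark is all that can be read for them.
mmu-miR-6402: gAGCAGUUuucccaggaacccgc
mmu-miR-5126: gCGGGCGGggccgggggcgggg
mmu-miR-34b-5p: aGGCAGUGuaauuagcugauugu
mmu-miR-34b-3p: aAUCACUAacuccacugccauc
No seed was shared among them. The region at Mir6402 held 389 tags in RANKL and 144 in WENRC, that at Mir5126 163 and 73.8, and that at Mir34b, a microRNA gene known as a p53 target, 155 and 54. The Mir5126 region also covers the start of Dner, a gene of a Notch ligand-like protein.

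GRO-seq was not used to choose the regions and could be tested. Of the 2374 genes 2350 had a row in the GRO-seq table. Of these, 105 were listed at 0 in every library, 649 lay under the filter on low values (at least 2 libraries at log2 of 10 or more) and 1596 (67.9%) were tested, beside 68.8% of all autosomal genes. Values are the authors' normalized log2 values, and fold changes on this scale understate the change of genes with few reads. The read depth of these libraries is unknown. In bulk cultures fewer cells of a type and less RNA per cell cannot be told apart. The header names the RANKL libraries as a repeat sequencing, so that an effect of the culture and one of the sequencing run cannot be told apart for RANKL either.

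The labels were checked on marker genes. Of 10 M cell markers 9 passed the test described below as higher in RANKL over WENRC, and their summed level was 13.42 and 13.45 in RANKL against 10.72 and 10.75 in WENRC, with 10.79 and 10.19 in ENRI. The summed stem cell markers were close, at 14.4 and 14.47 in RANKL and 14.55 and 14.67 in WENRC. Markers of other cell types were also higher in RANKL than in WENRC, with 5 of 10 enterocyte markers, 2 of 5 Paneth cell markers and 2 of 4 tested tuft cell markers called. Enterocyte markers summed to 14.73 and 14.87 in RANKL, 13.34 and 12.43 in WENRC and, highest, 15.68 and 16.48 in ENRI. Paneth cell markers summed to 10.9 and 10.67 in RANKL against 8.82 and 9.32 in WENRC, and tuft cell markers to 9.25 and 9.31 against 7.89 and 8.43. The part of these cell types in the differences below was not tested. Fibroblast markers summed to between 4.4 and 4.67 in every library and none passed the filter. Both mouse 1 libraries had a high value of the Y-linked gene Uty (10.47 in ENRI and 10.28 in WENRC) against 3.62 to 4.73 in the other 4 libraries. WENRC and ENRI thus each mixed a library with a high and one with a low value, while both RANKL libraries were low. The SD of the difference between replicates over the tested members was smallest in RANKL (0.268), with 0.537 in WENRC and 0.983 in ENRI.

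The genes were transcribed little in every culture, as were genes with a WENRC-higher start-site region. Per kb of gene, the 2216 members of at least 1000 bp had a median log2 level of -0.33 in RANKL, -0.29 in WENRC and, highest, -0.21 in ENRI, against 3.21, 3.21 and 3.13 in the 17824 other autosomal genes. In the 266 genes with a WENRC-higher start-site region the medians were 0.0, -0.62 and -0.6. The low level thus held in the stem and enterocyte cultures as well as in RANKL.

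Between RANKL and WENRC, more of the tested members were called lower than higher, the reverse of all genes. By limma, with p-values adjusted over all 16563 tested genes and an FDR under 0.05, 108 of 1596 (6.77%) were lower in RANKL, where 3.62% of all tested genes were. Higher were 69 (4.32%), where 8.53% of all tested genes were. The median difference was -0.118 on the log2 scale against -0.007 over all tested genes, and 949 (59.5%) of the differences were below 0 against 50.7%. Over the 4 pairs of 1 RANKL and 1 WENRC library the median ran from -0.294 to 0.01. So 1419 of the 1596 tested members did not pass in either direction. Recentring the libraries on their upper quartile moved the median of all genes to -0.122 and that of the members to -0.233. It gave 148 lower members (9.27%, beside 6.59% of all tested genes) and 63 higher (3.95%, beside 7.52%). After quantile normalization 115 members were lower (7.21%, beside 5.41%) and 68 higher (4.26%, beside 7.7%).

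The counts depended on which libraries entered the fit. With only the 4 RANKL and WENRC libraries, 326 members were lower (20.4%, beside 13.2% of all tested genes) and 142 higher (8.9%, beside 18.1%). Without RANKL 1 or RANKL 2 no gene at all was called by limma, and at an unadjusted p under 0.05 there were 161 lower (10.1%, beside 5.69% of all tested genes) and 85 higher members (5.33%, beside 10.6%) without RANKL 1. Without RANKL 2 there were 144 (9.02%, beside 5.52%) and 83 (5.2%, beside 9.49%). Without WENRC 1 the calls were 6 lower and 15 higher, and without WENRC 2 they were 8 and 14, with 26 lower and 236 higher of all tested genes in the first case and 25 and 191 in the second. In the authors' deposited table, lower members numbered 282 (17.7%, beside 11.1%) and higher members 124 (7.77%, beside 16.7%) at an adjusted p under 0.05.

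The share called lower was larger among genes with a larger H3K27me3 fold, beside 3.62% lower and 8.53% higher of all tested genes. It was 20 of 580 (3.45%) for a fold of 2 to under 2.5, 24 of 444 (5.41%) for 2.5 to under 3, 28 of 341 (8.21%) for 3 to under 4 and 36 of 231 (15.6%) for 4 or more. The first of these shares lay near that of all tested genes. The share called higher was 5.0%, 3.83%, 3.81% and 4.33% in the same bins and showed no such order. The median difference fell from -0.04 in the first bin to -0.334 in the last. By length of the region, 12.7% of the 204 genes with at least 2000 bp were lower and 2.94% higher, against 5.02% and 5.98% of the 418 genes with 500 bp. Across the 1596 genes the log2 fold of the region and the difference in GRO-seq had a Pearson r of -0.173, given as a description, since both share the WENRC and RANKL cultures and genes are not independent replicates.

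**Figure D4:**
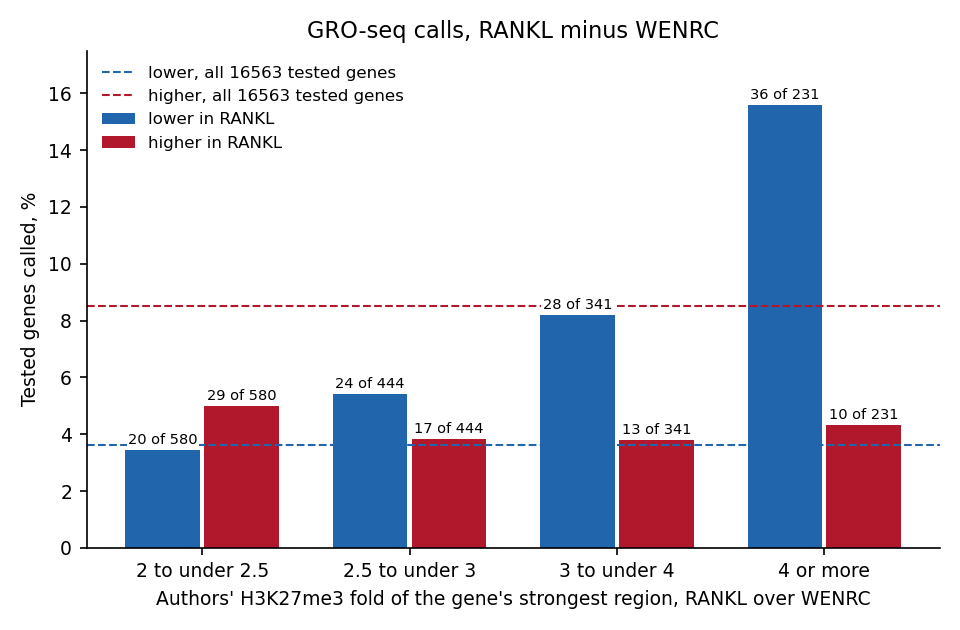
Bars give the percentage of tested genes called lower (blue) and higher (red) in RANKL than in WENRC by GRO-seq, by the authors' H3K27me3 fold of the gene's strongest region; dashed lines are the percentages of all 16563 tested genes. The blue bars go from 3.45% to 15.6%, beside 3.62% of all genes. The red bars stay between 3.81% and 5.0%, under the 8.53% of all genes.

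The counts were also split by where the region lay, beside 3.62% lower and 8.53% higher of all tested genes. With the centre upstream, 46 of 674 genes (6.82%) were lower and 34 (5.04%) higher (median difference -0.054), and with the centre at or downstream, 62 of 922 (6.72%) and 35 (3.8%) (median -0.156). Genes whose region covered the start had 71 lower (6.7%) and 38 higher (3.58%) of 1060, and those with the region beside it 37 (6.9%) and 31 (5.78%) of 536, with medians of -0.119 and -0.117. Genes with a RANKL-higher region only at 1000 to 5000 bp had 72 lower (6.43%) and 75 higher (6.7%) of 1119. The lower share was close to the 6.77% of all tested members, and the higher share was above their 4.32%. Genes with only a WENRC-higher region at the start had 0 lower and 49 (30.8%) higher of 159 by limma, with 3 lower and 73 higher at an unadjusted p under 0.05 and 4 lower in the authors' deposited table. None of these differences between sets was tested.

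Genes with a start-site region that fell in RANKL included receptors and enzymes of several kinds. Lgr5, the R-spondin receptor that marks crypt stem cells, had values of 8.75 and 8.84 in RANKL, 11.64 and 11.99 in WENRC, with 8.89 and 8.51 in ENRI. WENRC stood above both other cultures, which overlapped each other. The change from WENRC to RANKL was -3.02 (SE 0.19, limma FDR 0.00166). Lgr5 overlaps another listed gene, and its region (chr10:115022107-115026399, 303 against 92.7 tags) covered the start and reached into intron 1.

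Ifnlr1, a subunit of the receptor for lambda interferons, had 6.06 and 5.86 in RANKL, 8.50 and 8.63 in WENRC, with 9.12 and 9.41 in ENRI, so that RANKL was the low culture. Its change from WENRC was -2.61 (SE 0.18, limma FDR 0.00181) and its region had the highest fold among those with at least as many tags. Fyn, a Src-family tyrosine kinase, had 7.0 and 6.85 in RANKL, 8.48 and 8.68 in WENRC, with 7.04 and 7.30 in ENRI, with a change from WENRC of -1.65 (SE 0.18, limma FDR 0.00606). Here RANKL and ENRI lay together and WENRC above.

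Moxd1, a monooxygenase related to dopamine beta-hydroxylase, had 6.10 and 6.02 in RANKL against 8.68 and 8.38 in WENRC (-2.47, SE 0.20, limma FDR 0.00266). Plod2, a lysyl hydroxylase of collagen crosslinking, had 5.63 and 5.66 against 8.24 and 8.61 (-2.79, SE 0.23, limma FDR 0.00271) and overlaps another gene. Crnde had 5.15 and 4.87 against 7.47 and 7.36 (-2.40, SE 0.20, limma FDR 0.00268). In all of these the RANKL libraries lay apart from the WENRC libraries by far more than replicates differed. The other genes with the smallest p in this direction were Ppp1r3b, a glycogen-targeting subunit of protein phosphatase 1 (-1.66), Sulf2 (-1.37), Zdhhc2, a palmitoyltransferase (-1.42), Mboat2, a lysophospholipid acyltransferase (-1.62), Tigar, a fructose bisphosphatase (-1.26), Epb41l4a (-1.59), Gm53 (-1.59), Sgsm1 (-1.48) and Smpd3, a neutral sphingomyelinase (-1.45), with limma FDRs from 0.00522 to 0.00825.

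Transcription factors among the members that passed the test were lower in RANKL in each of the homeobox, Hox and zinc finger lists. The lists were built on gene names, and that of zinc fingers leaves out Zbtb7c, itself a Krueppel-type zinc finger factor, which rose, as did Nfatc4. Of 31 tested members on the Krueppel-type zinc finger list 4 fell and 0 rose by limma. At an unadjusted p under 0.05 there were 10 lower and 0 higher, and 12 were lower in the authors' deposited table. By limma 3.62% of all tested genes were lower and 8.53% higher, and on the whole list 18 and 15 of 408. Sp9 had 4.30 and 4.29 in RANKL, 6.59 and 5.93 in WENRC, with 5.88 and 6.14 in ENRI, a change from WENRC of -1.97 (SE 0.27, limma FDR 0.0104). Sp5, a Wnt target of the same family, had 5.51 and 5.27 in RANKL, 6.85 and 6.77 in WENRC, with 6.86 and 7.24 in ENRI (-1.42, SE 0.21, limma FDR 0.0133). In both genes RANKL was the low culture and ENRI and WENRC lay close together. Zfp395 changed by -0.84 (limma FDR 0.0188) and Gli1, the effector of Hedgehog signalling, by -0.92 (limma FDR 0.0421), with values of 3.45 and 3.68 in RANKL where the scale understates changes and with another gene overlapping it. Gli1 no longer passed when genes with low values were kept.

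Of 4 tested Hox members Hoxb5 and Hoxa3 fell, as did 4 of the 9 tested Hox genes without a start-site region. Hoxb5 had 3.78 and 3.83 in RANKL, 5.29 and 4.80 in WENRC, with 5.11 and 4.78 in ENRI (-1.24, SE 0.24, limma FDR 0.027), which did not pass after quantile normalization, and Hoxa3 had 5.44 and 5.40 against 7.88 and 6.73 in WENRC (-1.89, SE 0.40, limma FDR 0.0358). Hoxd4, whose WENRC values were 5.75 and 3.78, did not pass (-1.38, limma FDR 0.341). All 3 overlap other genes of their clusters. Among the homeobox members outside the clusters, Lhx3, a LIM homeobox gene, fell (-1.16). Meis2, with its fold of 11.66, had 11.61 and 11.65 in RANKL and 11.50 and 11.08 in WENRC and did not pass (0.34, limma FDR 0.313). The 7 tested helix-loop-helix, Gata and Ebf members had 0 calls by limma. At an unadjusted p under 0.05 there were 1 lower and 1 higher, and 1 was lower in the authors' deposited table. Over all tested genes limma called 12.1% in either direction, and 7 members are too few to set 0 apart from that share.

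Signalling genes moved in both directions. For each list in this paragraph the shares over all tested genes were 3.62% lower and 8.53% higher, 12.1% in either direction. Of 24 tested Wnt pathway members, Lgr5, Ror2 and Fzd3 fell and 0 rose. On the whole Wnt list 4 fell and 6 rose of 51 tested genes. Ror2, a receptor tyrosine kinase for Wnt5a, had 9.12 and 8.83 in RANKL against 10.30 and 10.32 in WENRC (-1.33, limma FDR 0.026), and Fzd3, a Frizzled receptor, 5.21 and 4.89 against 6.15 and 6.93 (-1.49, limma FDR 0.0491), a call lost without the filter on low values or after recentring on the upper quartile. Wnt5b (-0.48), Ror1 (0.25) and Fzd2 (0.18) did not pass. Notch1 had 8.84 and 9.15 in RANKL, 10.07 and 9.90 in WENRC, with 9.23 and 9.59 in ENRI and fell from WENRC by 0.99 on the log2 scale (SE 0.19, limma FDR 0.0254), and it overlaps another gene whose start the region also covers. The Notch ligand gene Jag2 (0.49) and Notch3 (-0.78, limma FDR 0.0664) did not pass. Tgfbr1, the type I receptor of TGF-beta, rose by 0.79 (limma FDR 0.0154), alone among 9 tested BMP and TGF-beta members. Of 9 tested Eph and ephrin members 0 passed by limma, with 2 lower and 0 higher at an unadjusted p under 0.05 and 1 lower in the authors' deposited table. Ephb2, a receptor that positions crypt cells, had 11.82 and 11.90 in RANKL against 12.68 and 12.56 in WENRC (-0.76, limma FDR 0.102). The immune cytokine gene Il33 (-1.19) and the interleukin 1 receptor accessory gene Il1rap (-1.37, with another gene overlapping it) fell, as 2 of 5 tested chemokine and interleukin members.

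The members that rose included genes of secretory cells and of adhesion. Muc2, the gel-forming mucin of goblet cells, had 10.58 and 10.37 in RANKL, 7.44 and 7.0 in WENRC, with 10.86 and 11.00 in ENRI. RANKL and ENRI lay near each other and WENRC far below, with a change from WENRC to RANKL of 3.25 (SE 0.19, limma FDR 0.00144). The summed goblet markers moved with it, at 13.65 and 13.61 in RANKL, 11.86 and 10.83 in WENRC, with 13.81 and 13.28 in ENRI, and 3 of the 6 passed as higher in RANKL over WENRC (Muc2, Clca1 and Fcgbp). What share of the Muc2 difference goes with the number of goblet cells was not tested. Chga, the chromogranin of enteroendocrine cells, had 7.54 and 7.60 in RANKL against 6.83 and 6.53 in WENRC (0.89, limma FDR 0.0315). The summed enteroendocrine markers were 10.51 and 10.93 in RANKL and 8.98 and 9.7 in WENRC, and their part in this was not tested.

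Celsr3, an atypical cadherin of planar cell polarity, had 11.66 and 11.76 in RANKL, 7.35 and 7.34 in WENRC, with 9.84 and 10.87 in ENRI. The 3 cultures did not overlap, and RANKL was the highest, with a change from WENRC of 4.37 (SE 0.32, limma FDR 0.00203). Btbd11 had 10.34 and 10.39 in RANKL, 6.31 and 6.85 in WENRC, with 6.87 and 6.57 in ENRI (3.78, SE 0.23, limma FDR 0.00144). Nfatc4, a calcineurin-regulated transcription factor, had 6.71 and 6.82 in RANKL and between 2.65 and 3.26 in the other 4 libraries (3.72, SE 0.22, limma FDR 0.00144). In both genes RANKL stood alone. Adgrb1, an adhesion G protein-coupled receptor known for recognizing phosphatidylserine and bacteria, had 7.74 and 7.60 in RANKL, 3.51 and 3.98 in WENRC, with 4.56 and 5.14 in ENRI (3.93, SE 0.28, limma FDR 0.00185). Its region held 160 tags against 61.2. The rest of the 10 smallest p were Zbtb7c (3.64) and Psd (2.25), which overlap other genes, Rhbdl3 (2.53), Kif26a (2.5) and Gpx3, the secreted glutathione peroxidase (2.08), with limma FDRs from 0.00242 to 0.00355. The folds of the regions at these 10 genes ran from 2.01 (Nfatc4) to 3.7 (Rhbdl3).

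**Figure D5:**
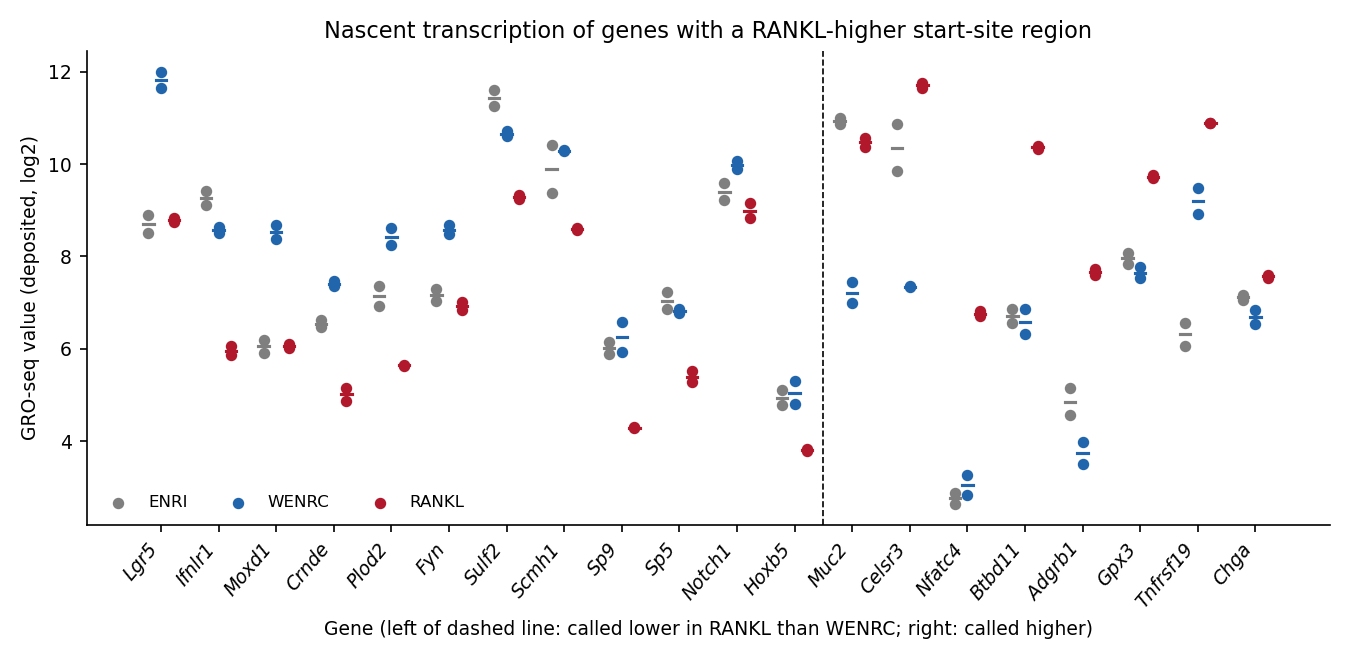
Points are the deposited log2 GRO-seq values of single libraries in ENRI (grey), WENRC (blue) and RANKL (red), with short lines at the mean of 2 libraries; genes called lower in RANKL than in WENRC are left of the dashed line and genes called higher are right of it. In Ifnlr1, Sp9, Sp5 and Hoxb5 RANKL is the lowest culture, in Lgr5, Moxd1 and Fyn it lies near ENRI, and in Nfatc4, Btbd11 and Adgrb1 it lies above both.

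The 4 stem cell markers with a region did not move together. Lgr5 fell, as above. Tnfrsf19, a TNF receptor family gene of crypt stem cells, had 10.89 and 10.89 in RANKL, 8.93 and 9.48 in WENRC, with 6.57 and 6.06 in ENRI, and rose over WENRC by 1.69 (SE 0.25, limma FDR 0.0129) with 2 regions of 500 bp (23 tags each against 4.5 and 8.1). Olfm4, a secreted crypt glycoprotein, had 10.90 and 11.05 in RANKL, 8.83 and 9.12 in WENRC, with 5.14 and 7.41 in ENRI. Its difference from WENRC of 2.0 (SE 0.67) did not pass (limma FDR 0.112). The ENRI replicates, which enter that SE, lay farther apart than those of RANKL or WENRC. The region at Olfm4 had 83 tags against 17.1. Smoc2, a matricellular protein gene, had -1.07 and did not pass either (limma FDR 0.112). At an unadjusted p under 0.05, 2 of the 4 were lower and 2 higher. The authors' deposited table also had 2 lower and 2 higher, where 11.1% and 16.7% of all tested genes were.

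Channels and neurotransmitter receptors were called at shares near or below that of all tested genes, and Kcne3 alone among them fell. Calls in either direction made up 11.1% of the tested calcium and sodium channel members, 13% of the potassium channel members and 4.55% of the neurotransmitter receptor members, beside 12.1% of all tested genes. Of 18 tested calcium and sodium channel members, Cacna1a (1.32, limma FDR 0.0436) and Scn3b (1.47, limma FDR 0.00895) rose and 0 fell by limma, with 4 higher and 0 lower both at an unadjusted p under 0.05 and in the authors' deposited table. Cacna1a did not pass without the filter on low values or after either rescaling of the libraries. Of 23 tested potassium channel members, Kcne3, a potassium channel subunit of gut epithelium, fell (-1.08, limma FDR 0.0303) and Kcnip1 (1.33) and Kcnk10 (1.62) rose, both overlapping other genes, and Kcnip1 did not pass after either rescaling. Of 22 tested neurotransmitter receptor members Grik5, a kainate receptor subunit, rose (1.37, limma FDR 0.0122). Of 42 tested solute carriers 3 fell, among them Slc16a10, an aromatic amino acid transporter (-2.12, limma FDR 0.0153), and 3 rose, among them Slc35f1 (3.09, limma FDR 0.00771).

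Polycomb genes were members about as often as other genes. Of the listed autosomal genes, 0 of 5 PRC2 core genes, 1 of 8 PRC2 accessory genes (Phf19) and 2 of 21 PRC1 genes (Scmh1 and Bmi1) had a start-site region, beside 10.1% of all. Scmh1 had 8.62 and 8.57 in RANKL, 10.30 and 10.29 in WENRC, with 10.41 and 9.38 in ENRI, a change from WENRC of -1.70 (SE 0.32, limma FDR 0.0246). Its RANKL libraries lay below all others. Phf19 (0.21) did not pass.

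The enterocyte culture offers a further view of the same genes, though it has no H3K27me3 library. Against ENRI, 166 members (10.4%) were lower in RANKL, with 10.5% of all tested genes called in that direction, and 110 (6.89%) were higher, with 10.4% of all. In this fit the lower share was thus at the background. In the authors' deposited table, lower members numbered 219 (13.7%, beside 11.0% of all tested genes) at an adjusted p under 0.05. Higher members there numbered 106 (6.64%, beside 8.55%). Ifnlr1 (-3.31), Sulf2 (-2.14), Sp5 (-1.66) and Sp9 (-1.72) were lower in RANKL than in ENRI as well, with limma FDRs from 0.00104 to 0.0114. Lgr5 (0.10) and Fyn (-0.24) did not pass there. These comparisons share the RANKL libraries, and their values are set side by side without a test of likeness.

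Between WENRC and ENRI, cultures of the same mice, 84 members (5.26%) were lower in WENRC, with 9.74% of all tested genes called lower, and 91 (5.7%) were higher, with 4.85% of all. With the replicate number as a block over all 6 libraries 55 were higher (3.45%, beside 2.57% of all tested genes) and 62 lower (3.88%, beside 6.52%). That block also ties the RANKL libraries to mouse numbers that they do not carry. A fit of the 4 WENRC and ENRI libraries with the mouse as block was not run. After recentring on the upper quartile 133 were higher (8.33%, beside 9.94%) and 66 lower (4.14%, beside 8.43%). In the main fit the higher share was above that of all genes, and after recentring it was below. Among the 231 tested genes with a fold of at least 4, 25 (10.8%) were higher in WENRC and 12 (5.19%) lower, with a median difference of 0.195. With only the 4 WENRC and ENRI libraries in the fit and no block, limma called 0 members, with 142 lower (8.9%, beside 14.5% of all tested genes) and 175 higher (11%, beside 10.1%) at an unadjusted p under 0.05. In the authors' deposited table, lower members numbered 97 (6.08%, beside 9.24%) and higher members 74 (4.64%, beside 3.3%).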

How the data were processed

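Per the file headers, the authors called H3K27me3 regions with HOMER on mm9, with the other culture as control, and deposited RANKL tags as counts, WENRC tags as a signal scaled by 0.9 (floor 0.5), a fold (ratio of tags, at least 2.0) and a p-value (at most 9.87e-05 here). The submitters' processing notes name Bowtie2 2.3.4.1, HOMER and DESeq2. The GRO-seq values deposited by the authors are log2 values over whole RefSeq genes, normalized between libraries; the header names no transform, and one like a regularized logarithm was inferred from the values. The authors' deposited table also gives a log2 fold change and an adjusted p-value per pair of cultures.

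Regions were joined to genes by symbol or RefSeq accession. Limma 3.58.1 (R 4.3.3) with a variance trend was fitted to all 6 GRO-seq libraries; two-sided p-values were Benjamini-Hochberg adjusted over 16563 genes, with calls at an FDR under 0.05. The fit was tested on simulated data. Tables were joined with Python 3.11.15. Members and gene lists were chosen with earlier results of these data known. Genes were named by rule: the 12 regions with the highest fold above the floor and the 12 with the most tags, the 15 lower and 10 higher genes with the smallest p, up to 10 genes with the most regions, per list the 4 with the most tags or the smallest p among called genes, regions at the limit and genes with regions of both directions. Nrg3 and Phf19 were named after their values were seen. The mouse number pairs WENRC with ENRI (r of deviations 0.414); with RANKL libraries only a number is shared (r of -0.323 and -0.205). P-values measure the spread between the 2 libraries of a culture, shared over all 3 cultures. In the main fit the ENRI replicates thus enter the p-values of RANKL against WENRC too.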

Additional observations from a re-analysis of the deposited data

How the results depend on the processing

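No named gene's fold change between RANKL and WENRC reversed under the alternatives run, nor did the members' median, although 1 pairing of single libraries gave a median above 0 (0.01) and the median of all genes went from -0.007 to 0.009 with a filter at log2 of 50. Without either WENRC library more members were called higher than lower, as among all tested genes. The median of the members was -0.259 without WENRC 1, against -0.001 over all tested genes. Without WENRC 2 it was -0.021, against -0.017. For RANKL against WENRC, 108 lower and 69 higher members became 326 and 142 with those 2 cultures alone in the fit and 282 and 124 in the authors' deposited table. Leaving out 1 library at a time gave 0 to 325 lower and 0 to 142 higher members and medians from -0.259 to -0.021. The lowest counts came without a RANKL library and the highest without an ENRI library, and the cause was not tested. The median went from -0.118 to -0.277 in the authors' deposited table and to -0.334 for folds of at least 4. Stricter limits left fewer members by construction. A distance of 500 bp left 1628 regions and 57 lower genes (5.26%, beside 3.62% of all tested genes). A fold of at least 4 left 285 regions with 36 lower (15.6%) and 10 higher genes (4.33%, beside 8.53% of all). The authors' p of at most 1e-10 left 1069 regions with 24 higher genes (3.04%). Within 2000 bp there were 3883 regions. Overlaps with WENRC-higher regions fell from 8 to 1 when 50% of the shorter region had to be shared. Against ENRI, 166 lower members became 104 with 2 cultures in the fit and 97 within 500 bp, and leaving out 1 library gave 2 to 325 lower and 5 to 268 higher. For WENRC against ENRI, limma called 0 genes of any kind with 2 cultures in the fit. At an unadjusted p under 0.05 there were 142 lower (8.9%, beside 14.5% of all tested genes) and 175 higher members (11%, beside 10.1%). Within 500 bp 51 were lower (4.71%, beside 9.74%) and 50 higher (4.62%, beside 4.85%). Leaving out 1 library there gave 0 to 216 lower and 0 to 340 higher. The cause of these shifts in the fits was not tested. The replicate block was fitted over all 6 libraries, RANKL included. With it, the 91 members higher in WENRC than in ENRI became 55 (3.45%, beside 2.57% of all tested genes). In the comparisons with RANKL only a number is shared. For RANKL against WENRC the block gave 80 lower (5.01%, beside 2.46%) and 67 higher members (4.2%, beside 6.38%). For RANKL against ENRI it gave 149 (9.34%, beside 8.27%) and 96 (6.02%, beside 8.11%). The counts with RANKL were within 1.5 times of the fit without the block. Of 62 named genes called between RANKL and WENRC, 5 lost the call under that block, 5 with no filter on low values, 4 after quantile normalization, 3 after recentring, 62 without either RANKL library, 44 without WENRC 1 and 45 without WENRC 2, while 0 lost it in the authors' deposited table. A library left alone in its culture was assumed to vary like the others. How many reads stand behind a GRO-seq value is not known, and H3K27me3 tags have no replicate check.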
